A study of Mus musculus with 24 samples.

Results

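The eye field and retina transcription factors described here are 9 genes, Pax6, Pax2, Six3, Six6, Rax, Otx2, Lhx2, Crx and Pitx3, out of 26212 genes of the GENCODE M1 annotation in which tags were counted. The rule lists them by name and uses no measured value, but they were chosen with earlier results of these data known. Of the 9 genes, 8 had at least 20 tags over the RiboMinus preparations and could be tested, while Crx had 4 tags and could not.

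The vertebrate eye begins as a field of cells in the anterior neural plate that expresses Rax, Six3, Six6, Pax6 and Lhx2, and most of these factors are used again in the forebrain. Otx2 is needed for the forebrain and midbrain and later for the pigment epithelium and photoreceptors, and Crx, a gene of the Otx family, is a factor of photoreceptor precursors and the pineal gland. Pax2 marks the optic stalk and is also used at the midbrain-hindbrain boundary and in the kidney and inner ear. Pitx3 is a factor of the lens and of midbrain dopamine neurons.

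RNA came from CCE cells, a feeder-independent mouse embryonic stem cell line of the 129/SvEv strain that had lost LIF and received 0.266 µM retinoic acid for 5 days, and from fetal heads (FH) of FVB/N mice at 14.5 days postcoitum. For RiboMinus, 4 cDNA preparations of CCE (CCE1s, CCE1h, CCE2s and CCE2h) and 3 of FH (FH1s, FH1h and FH2h) were each sequenced in Vienna (IMP) and Nijmegen, where s marks sheared cDNA, h marks hydrolysed RNA and FH2h had 2 rounds of ribosomal RNA depletion. Preparations with the same number share 1 depleted RNA, so that the n of 4 and 3 given below stands for 2 depleted RNAs per tissue. With sheared and hydrolysed preparations of 1 RNA merged, the same 8 genes were called higher in FH, as were 4441 of 15585 genes tested. This merging was tried after the data were seen. Apart from Pax6 and Lhx2, the 8 genes entered the test through their FH tags. A Ribo-Zero library per tissue, hydrolysed and sequenced in Vienna (CeMM), came from other RNA. The CCE preparations are technical replicates and no separate animals are stated for FH, so that p-values measure only the spread between preparations. The whole head holds brain, eyes, muscle, skull and skin in one sample, and in such bulk RNA fewer cells of a type and less RNA per cell cannot be told apart.

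A RiboMinus library held between 920424 and 2473448 unique tags, the CCE pool 13049762 and the FH pool 9924914. With Ribo-Zero the CCE library held 28708715 and the FH library 48426051. In the pooled RiboMinus libraries 3 tags, the most that a count of 0 allows, are worth 0.23 RPKM (a tag count scaled by exon length in kb and by the unique tags of the library) for a transcript of 1 kb in CCE and 0.302 in FH. Intervals given for tags are exact and cover counting error only. The hydrolysed FH1 lane of Vienna-IMP is described in the study as most likely a technical outlier, and it was kept here. The numbers of the hydrolysed preparations may be crossed at one location. Without the hydrolysed FH1 lane of Vienna-IMP the same 8 genes were called higher, as were 3176 of 15320 genes tested. Their differences then lay between 0.58 for Pax2 and 3.41 for Lhx2 on the log2 scale. In RiboMinus the 8 neural marker genes were all higher in FH, while in Ribo-Zero 7 were higher and Sox2 was lower (42.7 RPKM in CCE and 21.4 in FH). An example is Dcx (0.0407 RPKM in CCE and 30.7 in FH with RiboMinus). Of 11 marker genes of extraembryonic endoderm 9 were lower, such as Gata4 (13.1 RPKM in CCE and no tag in the FH pool), while Ttr was higher (9.13 RPKM in CCE and 143 in FH) and Afp was not called, and on the scale of protein-coding exon tags 7 were lower. Of 6 genes of undifferentiated stem cells, chosen after other values were seen, all were lower in FH, and Pou5f1 had 18.0 ± 2.51 RPKM (SD, n = 4) in CCE.

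The 250 bases before the start of the exon that opens the main coding transcript are shown for Lhx2, Otx2 and Six3, the members with the largest differences of log2(RPKM + 1) over coding exons. Bases are given 5′ to 3′ from the mm9 genome, and none of them is annotated as exon. Those of Lhx2 and Six3 lie in introns of longer transcripts of the same gene, and that of Otx2 lies before its first annotated base. Capitals mark matches, on either strand, to TAATCC, the core that Otx, Crx and Pitx homeodomains prefer, to TAATTA, a core of many other homeodomains, to TATAAA, or to GGGCGG, the GC box.
Otx2 (chr14:49287320-49287569, minus strand): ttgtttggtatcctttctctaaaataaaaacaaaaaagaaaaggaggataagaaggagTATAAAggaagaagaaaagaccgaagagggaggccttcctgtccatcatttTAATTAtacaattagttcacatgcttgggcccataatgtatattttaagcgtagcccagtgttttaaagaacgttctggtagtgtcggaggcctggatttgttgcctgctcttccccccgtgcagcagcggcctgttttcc
Lhx2 (chr2:38206578-38206827, plus strand): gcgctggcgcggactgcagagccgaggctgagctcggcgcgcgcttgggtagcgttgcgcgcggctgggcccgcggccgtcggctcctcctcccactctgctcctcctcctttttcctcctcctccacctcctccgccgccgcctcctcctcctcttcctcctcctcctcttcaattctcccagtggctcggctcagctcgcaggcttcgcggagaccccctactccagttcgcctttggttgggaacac
Six3 (chr17:86019933-86020182, plus strand): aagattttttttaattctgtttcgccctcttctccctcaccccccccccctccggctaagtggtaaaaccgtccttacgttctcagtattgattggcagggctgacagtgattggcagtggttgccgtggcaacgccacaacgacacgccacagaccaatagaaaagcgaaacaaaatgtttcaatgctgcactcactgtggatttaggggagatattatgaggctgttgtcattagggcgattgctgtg

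Among 22367 windows of protein-coding genes, TAATCC was found in 6.29%, TAATTA in 4.52%, TATAAA in 12.5% and GGGCGG in 40.4%. The Otx2 window held 1 TAATTA, beginning 141 bases before the start, and 1 TATAAA, beginning 192 bases before it. The Lhx2 and Six3 windows held none of the 4 words, and their GC content was 68.4% and 48.8%.

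All 8 genes that could be tested were higher in FH than in CCE, and none was lower (limma on log2(RPKM + 1), 4 CCE against 3 FH preparations, Benjamini-Hochberg over 15585 genes). Of all genes tested 23.4% were called higher and 26.8% lower. On the scale of protein-coding exon tags the shares were 29.2 and 16.4%, on a median-of-ratios scale 27.0 and 19.6%, and with fragmentation as a covariate 28.5 and 38.7%, and the same 8 genes were called higher under each of these. With no filter on tags 13.9% of all genes were called higher and 13.0% lower, and among genes with a mean over 3 RPKM in a tissue 20.3 and 34.0%, with Lhx2, Otx2 and Pitx3 the members tested there. The differences ran from 0.51 for Pax2 to 3.70 for Lhx2 on the log2 scale, with a median over all genes of -0.14. Pax2, Six3, Six6, Rax, Otx2 and Pitx3 had fewer than 20 tags in CCE and entered the test through their FH tags, so their count is a description. Pax6 had 111 and Lhx2 152 tags in CCE alone. In RiboMinus preparations the RPKM values of CCE and FH did not overlap for any of the 8 genes, as for 24.2% of all genes tested in this direction.

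Lhx2, a LIM homeodomain factor without which no optic cup forms and which also patterns the cortex, had the highest level in FH and the largest difference of log2(RPKM + 1). The order of differences depends on the scale, since with a pseudocount of 0.1 Pitx3 (4.41) stood above Lhx2 (3.99), and with limma voom on tag counts Six3 (5.82), Six6 (4.48), Pitx3 (4.26) and Otx2 (4.04) stood above Lhx2 (4.02). It lies at chr2:38194801-38225253 on the plus strand. In CCE it had 2.97 RPKM in CCE1h, 3.44 in CCE1s, 3.62 in CCE2h and 5.34 in CCE2s. In FH the values were 54.7 in FH1h, 72.5 in FH1s and 57.7 in FH2h. The lowest FH preparation thus stood about an order of magnitude above the highest CCE preparation. The means were 3.84 ± 1.03 (SD, n = 4) and 61.6 ± 9.56 RPKM (SD, n = 3), and the log2 difference was 3.70 (SE 0.21, adjusted p = 2.2e-06, limma). Single FH libraries ran from 28.9 RPKM for FH1h in Nijmegen to 76.3 for FH1s in Nijmegen, and FH1h had 74.1 in Vienna. Lhx2 was also the only member with a mean over 3 RPKM in CCE.

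Otx2, at chr14:49277354-49287319 on the minus strand, was next in FH. Its RiboMinus level in CCE was 0.59 RPKM in CCE1h, 0.197 in CCE1s, 0.525 in CCE2h and 0.326 in CCE2s. The FH preparations had 8.01 in FH1h, 5.77 in FH1s and 7.36 in FH2h. The sheared FH preparation was the lowest, as it was for Pax6, while for the other genes called it was the highest. The log2 difference was 2.51 (SE 0.18, adjusted p = 8e-06, limma).

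Six3 and Six6 were nearly absent from CCE. Six3, a repressor of Wnt genes in the forebrain and eye field, lies at chr17:86012948-86031153. It had a single tag in the CCE pool, in CCE2s, and 34 tags in FH1h, 37 in FH1s and 42 in FH2h, which gave 1.05, 2.24 and 1.11 RPKM. The log2 difference was 1.25 (SE 0.16, adjusted p = 0.00025, limma). Six6, the closest relative of Six3 and a regulator of retinal progenitors and the pituitary, lies at chr12:74040932-74045886. It had no tag in any of the 8 CCE libraries and 0.953 RPKM in FH1h, 1.74 in FH1s and 0.468 in FH2h, with a log2 difference of 0.99 (SE 0.19, adjusted p = 0.0019, limma). Its lowest FH preparation rested on 8 tags.

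Rax, the homeobox gene that sets up the retinal anlage and later marks retinal progenitors and the hypothalamus, lies at chr18:66094293-66098743 on the minus strand. CCE1h and CCE2h had no tag, CCE1s had 1 tag (0.201 RPKM) and CCE2s had 2 (0.443 RPKM). FH1h had 0.807 RPKM, FH1s 4.76 and FH2h 1.52. The FH values spread widely, with a mean of 2.36 ± 2.11 RPKM (SD, n = 3), and single libraries of both tissues overlapped. The log2 difference was 1.37 (SE 0.35, adjusted p = 0.0094, limma). Without the preparation FH1s Rax fell under 20 tags and was not tested, and with no filter on tags its adjusted p was 0.06 (limma).

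Pax6 and Pax2 had the smallest differences of log2(RPKM + 1) in RiboMinus. Pax6, a paired and homeodomain factor of the eye field, lens, retina and cortex, lies at chr2:105509053-105543317. It had 0.48 RPKM in CCE1h, 0.473 in CCE1s, 0.404 in CCE2h and 0.336 in CCE2s against 1.32 in FH1h, 0.908 in FH1s and 1.35 in FH2h. The log2 difference was 0.62 (SE 0.13, adjusted p = 0.0032, limma). Pax2, at chr19:44830539-44912758, had 0.0863 RPKM in CCE1h, 0.173 in CCE1s, 0.102 in CCE2h and 0.191 in CCE2s. Its FH values were 0.51 in FH1h, 1.00 in FH1s and 0.399 in FH2h, each from 10 or 11 tags. The log2 difference was 0.51 (SE 0.14, adjusted p = 0.012, limma), and with the Vienna-IMP libraries alone the call was lost (adjusted p = 0.061).

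Pitx3, at chr19:46210175-46222865 on the minus strand, had 1 tag in the CCE pool, in CCE2s, and 1.03 RPKM in FH1h, 9.08 in FH1s and 2.2 in FH2h. The sheared FH preparation was several times as high as both hydrolysed ones. The log2 difference was 1.93 (SE 0.45, adjusted p = 0.0062, limma) and fell to 1.27 without FH1s (adjusted p = 0.00085). Crx, at chr7:16451296-16465317 on the minus strand, had no tag in CCE and none in FH1h, 1 tag in FH1s and 3 in FH2h. Its pooled FH level of 0.128 RPKM (0.0348 to 0.327) was close to the 0.0957 RPKM of 3 tags.

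**Figure D1:**
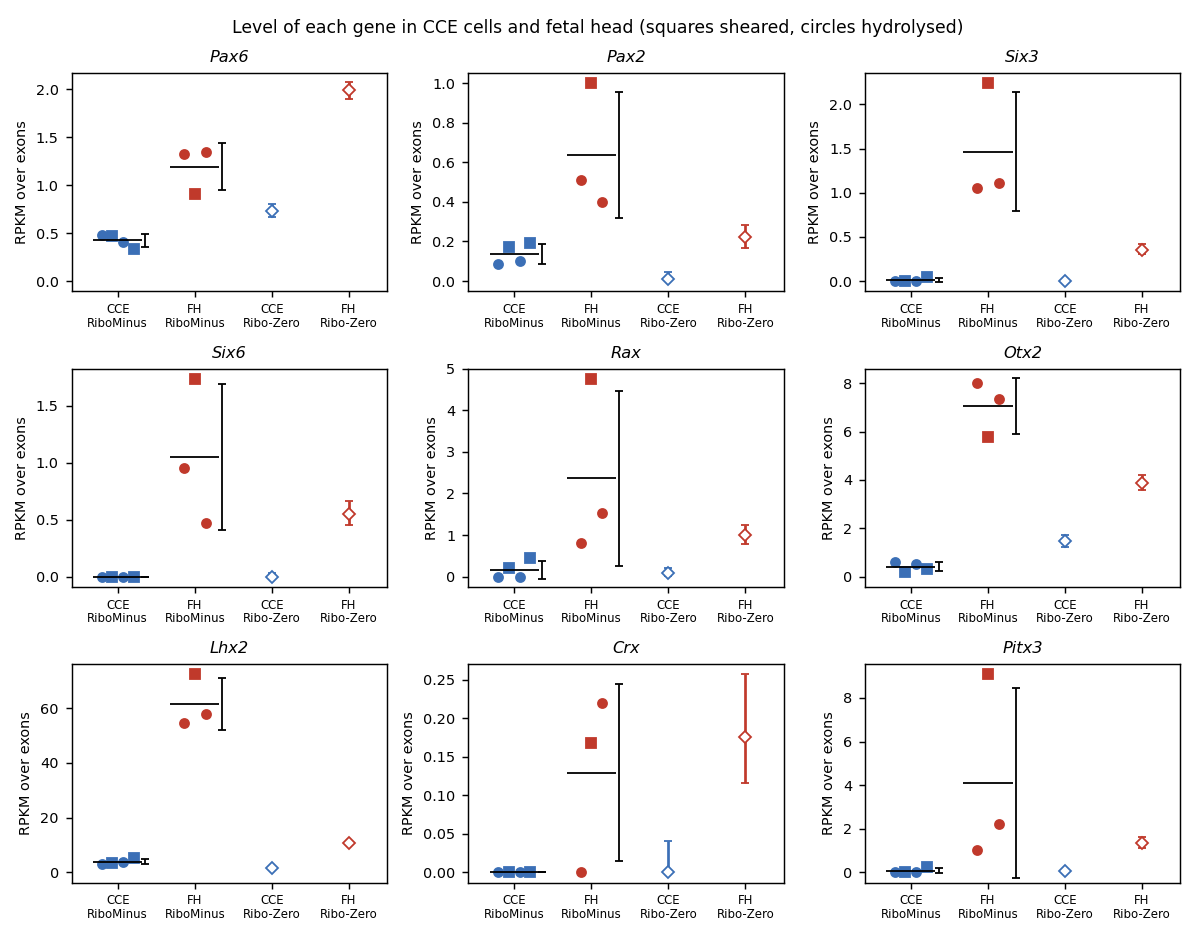
RPKM over merged exons of each gene (y axis, own scale per panel) in the RiboMinus preparations of CCE (blue) and FH (red), with squares for sheared and circles for hydrolysed preparations, black lines for means and bars for SD, and in the Ribo-Zero libraries (open diamonds, exact 95% counting intervals). FH points lie above CCE points for every gene except Crx, where FH1h has no tag. FH1s is the highest FH preparation of Pax2, Six3, Six6, Rax, Lhx2 and Pitx3.

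Within FH the order of the pooled RiboMinus levels per kb was Lhx2 (59.4 RPKM), Otx2 (7.3), Pitx3 (3.07), Rax (1.87), Six3 (1.3), Pax6 (1.25), Six6 (0.891), Pax2 (0.556) and Crx (0.128). Lhx2 stood apart from all the others in every preparation. Otx2 came next in FH1h and FH2h, while in FH1s Pitx3 was above it. The preparations of Pitx3, Rax, Six3, Pax6 and Six6 overlapped with their neighbours in this order, as did those of Six6 and Pax2. In CCE the order was led by Lhx2 (3.74 RPKM), with Otx2 and Pax6 both at 0.429, and the other 6 genes stood at or under 0.138. With Ribo-Zero the order differed, with Otx2 (1.47 RPKM) ahead of Lhx2 (1.37) in CCE, and with Pax6 (1.99) behind Lhx2 and Otx2 in FH.

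Part of the Pax6 exons is also annotated to another gene. Elp4, a subunit of the Elongator complex, ends within the last exon block of Pax6 on the opposite strand, and since tags carry no strand the 5542 exon bases they share (27.9% of the merged exons of Pax6) cannot be assigned to either gene. These bases held 72 of the 111 Pax6 tags of the CCE pool (64.9%) and 58 of the 247 tags of the FH pool (23.5%). Their density was 0.996 RPKM in CCE and 1.05 in FH, while in exon bases that Pax6 shares with no gene it was 0.209 and 1.33. With Ribo-Zero the shared bases had 1.27 RPKM in CCE and 2.08 in FH, and the unshared ones 0.524 and 1.95. Elp4, over exon bases of its own, had 5.48 RPKM in CCE and 5.77 in FH with RiboMinus and was not called (log2 difference 0.08, adjusted p = 0.76, limma). With Ribo-Zero Elp4 had 6.55 RPKM in CCE and 4.62 in FH over these bases.

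In the unshared exons Pax6 had 0.298 RPKM in CCE1h, 0.187 in CCE1s, 0.187 in CCE2h and 0.129 in CCE2s against 1.3 in FH1h, 0.889 in FH1s and 1.55 in FH2h. The log2 difference rose from 0.62 to 0.90 (SE 0.13, adjusted p = 0.00051, limma). Over coding exons alone it was 1.36 (SE 0.26, adjusted p = 0.0025, limma). The merged exons of Pax6 span 19833 bases with 33 annotated transcripts, some of which keep introns, against 1783 coding bases, and the pooled FH level was 4.63 RPKM over coding bases and 1.25 over all exons.

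Other members share bases as well. Rax shares 818 of its 1669 exon bases with Raxos1, a non-coding RNA on the opposite strand, and these held 19 of its 31 FH tags, while without them Rax fell under 20 tags. Six3os1, a long non-coding RNA that runs away from Six3 on the opposite strand, shares 106 bases with it. Six3os1 itself rose in FH, from 0.198 to 3.2 RPKM in the pools (log2 difference 1.80, SE 0.16, adjusted p = 2.2e-05, limma). The gene that overlaps the start of Six6 on the opposite strand, 4930447C04Rik, went the other way, from 1.00 to 0.2 RPKM (log2 difference -0.69, SE 0.20, adjusted p = 0.018, limma). With Ribo-Zero this gene had 4.58 RPKM in CCE and 0.239 in FH. Pax6os1, Gm20395 and 1700039E22Rik had no tag in the RiboMinus pools, Elovl3 had 1 and Gm13584 had 4, so none of these was tested. The span of Gm13584, on the opposite strand, covers exon block 7 of Lhx2 and parts of its introns.

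**Figure D2:**
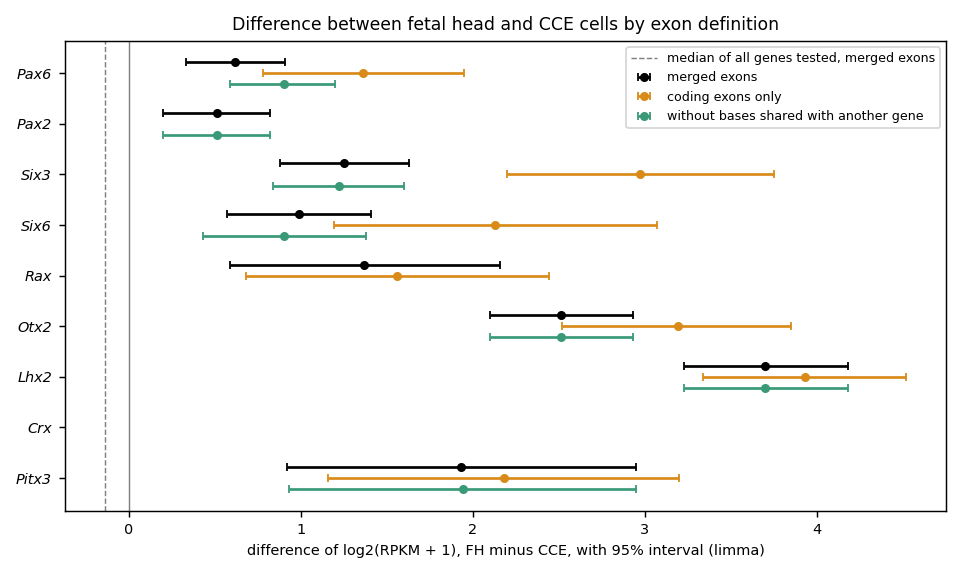
Difference of log2(RPKM + 1) between FH and CCE (x axis, with the 95% interval of limma) for each gene over merged exons (black), coding exons only (orange) and exon bases shared with no other gene (green), with a dashed line at the median of all genes tested. Every interval shown lies above 0, Pax6 moves from 0.62 to 1.36 and Six3 from 1.25 to 2.97 over coding exons, and combinations under 20 tags have no point.

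In the FH RiboMinus pool tags were denser in coding than in 3′ untranslated regions of the genes given here. The coding region of the main Six3 transcript had 7.16 RPKM in the FH pool, while its 3′ untranslated region of 4099 bases had 0.123. For Six6 the same values were 3.28 and 0.195 RPKM, for Lhx2 128 and 10.6, for Otx2 17.6 and 4.12, and for Rax 2.26 and 0.548. Pitx3 differed less, with 3.89 RPKM in the coding region and 3.00 in the 3′ untranslated region, and with Ribo-Zero in FH it had 1.19 and 2.09. Over coding exons the log2 differences were 2.97 for Six3 (SE 0.34), 2.13 for Six6 (SE 0.41), 3.19 for Otx2 (SE 0.29) and 3.93 for Lhx2 (SE 0.26). The 7 genes with at least 20 coding tags were called higher, where 20.0% of all genes tested on coding exons were. Apart from Pax6 and Lhx2 these had fewer than 20 coding tags in CCE and entered through FH, so nothing is read from this count. Pax2 had 10 coding tags and was not tested there.

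The exons before the coding region of Otx2 held a larger share of its tags in FH than in CCE with Ribo-Zero, and in CCE no tag with RiboMinus. Otx2 has 3 annotated exon blocks of 970 bases in all upstream of the first coding block. They held 38 of 246 exon tags in the FH RiboMinus pool (15.4%, exact interval 11.2 to 20.6) and none of 19 in CCE (exact upper limit 17.6%). In the deeper Ribo-Zero libraries they held 79 of 639 tags in FH (12.4%, 9.91 to 15.2) and 3 of 143 in CCE (2.1%, 0.435 to 6.01). The share was 16.8% in FH1h, 18.9% in FH1s and 13.0% in FH2h. The first block, which follows the sequence printed above, held 2 of the 38 RiboMinus and 8 of the 79 Ribo-Zero tags in FH. The block at chr14:49284654-49284921, the last before the coding blocks, held 26 of these 38 RiboMinus tags and 58 of the 79 Ribo-Zero tags in FH, and no tag in CCE with either kit.

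Lhx2 had a smaller share of the same kind. Its 2 noncoding blocks at the 5′ end, 599 bases, held 63 of 1837 FH tags (3.43%, 2.65 to 4.37) and 1 of 152 CCE tags (0.658%, 0.0167 to 3.61). In Ribo-Zero they held 73 of 1581 FH tags (4.62%, 3.64 to 5.77) and none of 123 CCE tags (exact upper limit 2.95%). With 1 Ribo-Zero library per tissue these shares were compared by their counting intervals only.

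**Figure D3:**
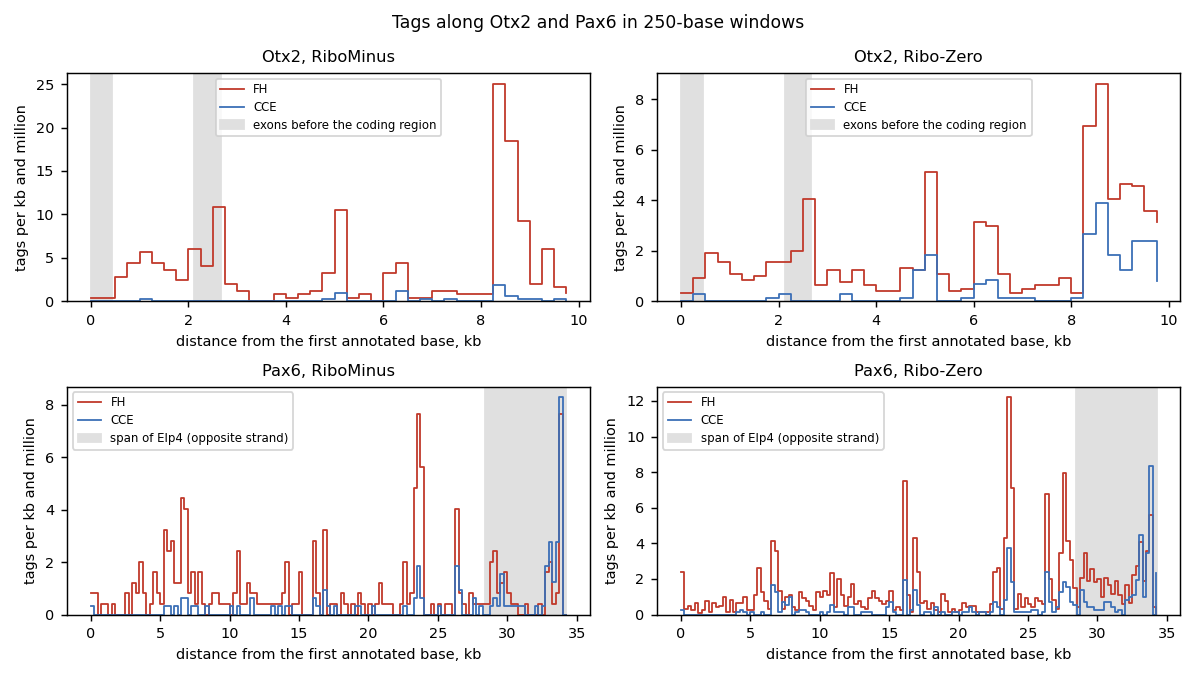
Tags scaled by length and library depth as in RPKM (y axis) in windows of 250 bases along Otx2 and Pax6, by distance from the first annotated base in the direction of transcription (x axis, kb), for CCE (blue) and FH (red) with each kit. Grey marks the Otx2 exons before the coding region, where CCE lies near 0, and the part of Pax6 inside the Elp4 span, where both tissues have a peak at the end.

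Introns, which the RPKM over exons leaves out, were covered too. Of the 9 genes, 5 (Pax6, Pax2, Six3, Otx2 and Lhx2) had intron values in FH above all CCE values, each with an exact permutation p of 0.0571, the smallest that 4 against 3 preparations allow (two-sided, adjusted p = 0.103 over 9 genes). Among 12832 genes with at least 20 intron tags, 35.1% had no overlap in this direction. These 5 genes reached 20 intron tags only through FH, with between 3 and 17 tags in CCE, and the other 4 had at most 11 in all and did not reach 20, so the count is a description. Otx2 introns had 0.0321 ± 0.0428 RPKM (SD, n = 4) in CCE and 1.6 ± 0.291 (SD, n = 3) in FH. The corresponding values were 0.0446 ± 0.0343 and 1.21 ± 0.182 for Lhx2 and 0.0368 ± 0.049 and 1.26 ± 0.212 for Six3. Part of the Six3 introns, 963 bases, lies within the span of Six3os1, and without strand their tags (2 in the CCE and 36 in the FH pool) cannot be assigned to either gene. In the other 4773 intron bases of Six3 the pools had 1 tag in CCE and 37 in FH, or 0.0161 and 0.781 RPKM, and the FH preparations (1.02 RPKM in FH1h, 0.666 in FH1s and 0.63 in FH2h) stayed above those of CCE (0.0525 in CCE1h and no tag in the others). Per base, introns had 0.229 of the exon density in the FH pool for Otx2 and 0.0209 for Lhx2, and in Ribo-Zero 0.241 and 0.102. Of the Lhx2 intron tags, 24 in the FH and 3 in the CCE RiboMinus pool lay within the span of Gm13584, and 306 and 14 outside it. With Ribo-Zero 267 and 8 lay within that span and 1118 and 41 outside it. More than 2 kb away from any exon within the gene, Lhx2 introns held 77 tags in FH and none in CCE with RiboMinus, and 260 and 4 with Ribo-Zero.

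The Ribo-Zero libraries, from other RNA, also had every member higher in FH. With 1 library per tissue there is no test, and ratios carry counting intervals only. The ratio of FH to CCE was 2.71 (2.44 to 3.02) for Pax6, 2.65 (2.21 to 3.2) for Otx2 and 7.62 (6.34 to 9.23) for Lhx2. Rax had 81 tags in FH and 4 in CCE, a ratio of 12.0 (4.51 to 45.1). Pax2, Six3 and Pitx3 rested on 1 or 2 CCE tags, with ratios of 18.4 (4.88 to 155), 89.5 (15.8 to 3558.9) and 30.2 (8.16 to 253). Six6 had 106 tags in FH and none in CCE and was at least 20.9-fold higher when CCE is set to 3 tags, with an exact lower bound of 16.7 that also covers counting error in FH. Crx had 27 tags in FH, or 0.176 RPKM (0.116 to 0.257), and none in CCE. It was at least 5.34-fold higher when CCE is set to 3 tags, with an exact lower bound of 4.05. Of the 15585 genes tested above, 20.0% had a ratio over 2.

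For Otx2 and Lhx2 the difference was larger in the RiboMinus pools than with Ribo-Zero. The RiboMinus pools gave a ratio of 17.0 (10.7 to 28.8) for Otx2, against 2.65 in Ribo-Zero, and 15.9 (13.5 to 18.9) for Lhx2, against 7.62, and these intervals did not overlap. Otx2 in CCE had 0.429 RPKM (0.258 to 0.669) with RiboMinus and 1.47 (1.24 to 1.73) with Ribo-Zero, while in FH it had 7.3 and 3.88. Lhx2 fell from 59.4 to 10.5 RPKM between the kits in FH and from 3.74 to 1.37 in CCE. For Pax6, Pax2, Six3, Rax and Pitx3 the intervals of both kits overlapped, and Six6 and Crx had no CCE tag with either kit. Kit, RNA sample, sequencing site and tag length changed together and cannot be told apart. The mix of fragmentation methods also changed, since Ribo-Zero RNA was all hydrolysed. With hydrolysed RiboMinus libraries alone the difference of log2(RPKM + 1) was 2.48 for Otx2 and 3.74 for Lhx2, against 2.51 and 3.70 with all. The part of fragmentation in the gap between the kits was not tested. Where tags with the same start were counted once, the Ribo-Zero ratios were 1.85 for Pax6, 1.8 for Otx2 and 3.89 for Lhx2, whose 1581 FH tags lay at 918 positions. The libraries were then scaled by their distinct positions as well, 14747865 in CCE and 30300144 in FH, so the scale also changed these ratios.

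The ratio of Ribo-Zero to RiboMinus RPKM in FH differed among the members by close to an order of magnitude. It was 1.58 (1.39 to 1.81) for Pax6, 0.621 (0.42 to 0.938) for Six6, 0.536 (0.35 to 0.838) for Rax, 0.532 (0.459 to 0.619) for Otx2, 0.436 (0.306 to 0.627) for Pitx3, 0.397 (0.255 to 0.629) for Pax2, 0.274 (0.213 to 0.353) for Six3 and 0.176 (0.165 to 0.189) for Lhx2. Against the hydrolysed FH preparations alone the ratio was 0.806 (0.5 to 1.36) for Pitx3, 0.84 (0.487 to 1.54) for Rax and 0.8 (0.502 to 1.33) for Six6, with 21, 16 and 22 RiboMinus tags, and it stayed at 0.186 (0.173 to 0.2) for Lhx2, 0.33 (0.249 to 0.44) for Six3 and 0.507 (0.433 to 0.596) for Otx2. Over 12398 protein-coding genes with at least 100 Ribo-Zero and 20 RiboMinus tags the median was 0.77, and 1.35% of them were at or under the ratio of Lhx2. The median fell with the GC content of exons from 1.12 at 40 to 45% GC to 0.341 at 60 to 65%, and was 0.384 over the 51 genes at 65 to 70%, where Pitx3 lies. Lhx2, Pax2, Rax and Pitx3 have 60.3, 59.6, 63.2 and 67.4% GC in their exons, and Pax6, Six6 and Otx2 have 46.3, 43.4 and 47.3%. Six3, with the second lowest ratio, has 52.7%, and from 50 to 55% GC the lower quartile of all genes was 0.445. The part of base composition in these ratios was not tested.

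**Figure D4:**
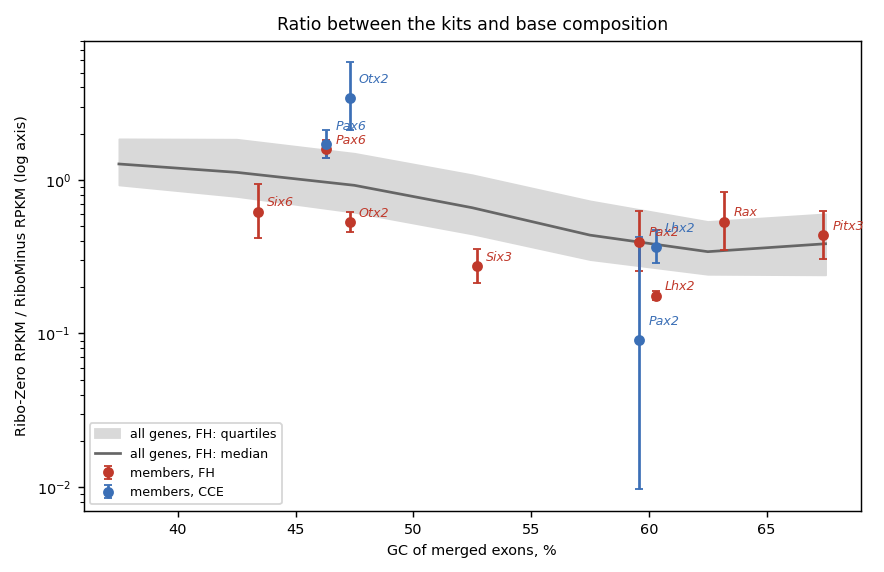
Ratio of Ribo-Zero to RiboMinus RPKM (log y axis) against the GC content of merged exons (x axis) for members with at least 10 RiboMinus tags in a tissue, in FH (red) and CCE (blue) with exact 95% counting intervals, over the median (grey line) and quartiles (grey band) of 12398 genes in FH. Lhx2 (0.176), Six3 (0.274), Otx2 (0.532) and Six6 (0.621) lie under the band in FH and Pax6 lies at its upper edge (1.58). Against the same band, which is made from FH, Otx2 (3.42) and Pax6 (1.71) lie above and Pax2 (0.0909) under it in CCE.

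Fragmentation moved 1 member past the threshold. With tissue in the model, Rax was lower in hydrolysed than in sheared preparations, with a log2 difference of -0.81 (SE 0.22, adjusted p = 0.021, limma), against 14.5% of all genes lower and 20.8% higher. Pitx3 had -0.88 (SE 0.34, adjusted p = 0.072) and Otx2 0.33 (SE 0.13, adjusted p = 0.081) and were not called. FH had a single sheared preparation, so in FH this comparison rests on FH1s. With fragmentation as a covariate all 8 genes remained higher in FH, with Rax at 1.51 (SE 0.22, adjusted p = 0.00026, limma) and Pitx3 at 2.08 (SE 0.34, adjusted p = 0.00051, limma). Between the locations none of the 8 genes was called, with differences from -0.26 (SE 0.19) for Lhx2 to -0.02 (SE 0.14) for Pitx3, where 0.314% of all genes were higher and 0.0898% lower in Nijmegen.

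Genes that act with the members were read from lists. In these lists too a gene with fewer than 20 tags in CCE entered the test only through FH, so the counts are descriptions. Among 10 genes of the network of Eya and Dach genes with Six2, Six4 and Six5, in which Eya and Dach proteins serve as cofactors of homeodomain factors such as Six3, 8 were higher in FH and 2 lower, with a median log2 difference of 1.67. Six2 rose from 0.596 ± 0.457 to 13.9 ± 11.3 RPKM (log2 difference 3.01, adjusted p = 0.00046, limma) and Six5 from 4.73 to 33.1 (2.61, adjusted p = 4.5e-05, limma), although with Ribo-Zero Six5 had 6.5 RPKM in CCE and 5.9 in FH. Eya2 rose from 0.213 to 3.63 RPKM. The 2 lower genes were Six4 (5.03 and 2.21 RPKM, log2 difference -0.92) and Eya3 (1409 and 621 tags in the pools, -0.83), named after their values were seen. Six2 is also the nearest protein-coding gene beyond Six3, at 52.5 kb.

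Among 17 genes of optic vesicle and forebrain patterning, 8 were higher, 4 lower, 4 not called and 1 not tested, with a median of 0.62, and with Ribo-Zero 9 had a higher and 8 a lower level in FH. Nr2e1, an orphan receptor of forebrain and retinal progenitors, had no CCE tag with either kit and 7.33 RPKM in FH with RiboMinus. Zic2 rose from 1.54 to 16.0 RPKM, although with Ribo-Zero it had 3.63 in CCE and 5.06 in FH. Bmp4 fell from 33.3 ± 3.19 to 5.06 ± 0.601 RPKM (log2 difference -2.50, adjusted p = 5e-06, limma).

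Of 17 factors of retinal neurons 12 were higher and the other 5 had too few tags, with a median of 1.23. Of the 12 genes, 7 had fewer than 20 tags in CCE. Atoh7, which retinal ganglion cells require, had no tag in the CCE pool and 18.3 ± 4.5 RPKM in FH (log2 difference 4.25, adjusted p = 8.5e-07, limma). Pou4f2, which acts after it in ganglion cells, rose from 0.146 to 3.16 RPKM, Neurod1 from 0.766 to 9.93 and Lhx1, of horizontal cells, from 0.276 to 6.92. Of 12 photoreceptor genes 10 had too few tags to be tested and the other 2 were not called, Opn1sw (0.277 RPKM in CCE and 0.307 in FH) and Pde6b (0.0979 and 0.349). With Ribo-Zero 9 of the 12 had a higher and 1 a lower level in FH, many on few tags. Opn1sw had 0.245 RPKM in CCE and 0.654 in FH there, and Pde6b 0.104 and 0.259.

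Lens genes other than crystallins had 6 of 9 higher, none lower and a median of 1.11. Mip, the lens fibre aquaporin, rose from 0.239 ± 0.0916 to 19.2 ± 3.3 RPKM (log2 difference 4.02, adjusted p = 9.5e-07, limma), and Gja3, Bfsp1 and Lim2 were higher by 1.67, 1.22 and 1.34. In the list of pigment epithelium and melanin genes 4 of 12 were higher, 1 was not called and 7 had too few tags, with a median of 1.97. Ttr, which choroid plexus also makes, rose from 9.13 to 143 RPKM, Pmel from 1.43 to 8.25, Rlbp1 from 0.252 to 4.68 and Tyrp1 from no tag to 0.734.

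Among midbrain dopamine neuron genes, where Pitx3 acts, 7 of 11 were higher, 1 lower, 2 not called and 1 not tested, with a median of 1.12. Lmx1a rose from 0.197 to 2.89 RPKM, Lmx1b from 0.462 to 3.84 and En2 from 0.595 to 5.52, while Ddc, an enzyme of dopamine synthesis also found outside the brain, fell from 12.3 to 2.05. At the midbrain-hindbrain boundary, where Pax2 acts, 3 of 6 genes were higher, 1 was not called and 2 were not tested, with a median of 0.65. Pax5 and Pax8, the nearest relatives of Pax2, had log2 differences of 1.23 and 0.68 and Gbx2 0.63, all called, and Fgf17 0.33, not called. With Ribo-Zero only Pax5 and Pax8 were higher in FH, while Gbx2 had 1.29 RPKM in CCE and 1.02 in FH, Fgf17 0.764 and 0.49, Fgf8 0.31 and 0.0306, and Wnt1 0.437 and 0.0432. Of 15 paralogs of the members 12 were higher and 2 lower, with a median of 1.81. Pax9 rose from 0.215 to 5.32 RPKM and Lhx9, the paralog of Lhx2, from 0.147 to 5.16. Several genes stand in more than 1 list.

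**Figure D5:**
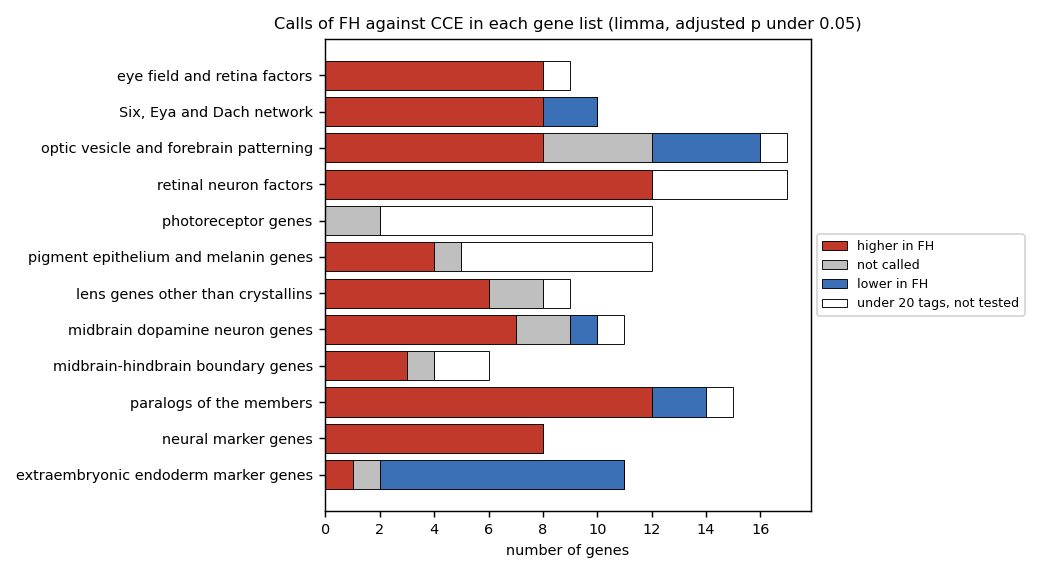
Number of genes (x axis) in each list that were called higher in FH (red), not called (grey), called lower (blue) or under 20 tags and not tested (white) in the comparison of FH and CCE. The first bar shows 8 higher genes and Crx untested, and the bar of photoreceptor genes holds 10 untested genes of 12.

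The summed level of the members ran from 4.13 to 6.91 RPKM in CCE and from 68.3 to 98.2 in FH preparations, most of it Lhx2. The neural marker list moved with it, from 47.6 to 56.0 RPKM in CCE and from 397 to 634 in FH, with none of its 8 genes at 0 in CCE. The lens list ran from 6.93 to 11.4 RPKM in CCE and from 41.2 to 46.1 in FH, with Lim2 and Foxe3 at 0 in the CCE pool. The part of cell composition in the differences of the members was not tested.

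Genes with the most similar profile were found by the Euclidean distance of log2(RPKM + 1) over 7 preparations and 2 Ribo-Zero libraries among 22366 protein-coding genes. Nearest to Lhx2 were Tmem151b (distance 1.40) and Bai2 (1.52), and nearest to Otx2 were Tcfap2b (0.82) and Ncald (0.93). Low genes had closer neighbours, Cacna1i (0.30) and Trpc7 (0.31) for Six3, March11 (0.25) and Klhl14 (0.27) for Six6, and 9330182L06Rik (0.41) and Eml6 (0.45) for Pax6. Skor1 (0.66) and Hrh3 (0.70) were nearest to Rax, and Dok7 (0.86) and Cyp2w1 (0.91) to Pitx3. Pax2 and Crx, with a mean under 1 RPKM in FH, were left out of this search.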

How the data were processed

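Ribosomal RNA-depleted RNA of CCE cells and fetal head was sequenced as tags without strand. The authors removed ribosomal tags, aligned the rest with Bowtie to mm9 (up to 2 mismatches in 36 nt RiboMinus and 3 in 51 nt Ribo-Zero reads) without splice junctions and kept uniquely placed tags. The deposited files of 16 libraries list 1 tag per line with start and end, and their score column, constant in a library, was not used. RiboMinus files hold no mitochondrial tags, while Ribo-Zero files do. The other 8 samples of the series were not analysed here. Groups and locations came from the labels, preparation numbers from the study's supplementary list of libraries.

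Tags were counted by midpoint in merged exons of GENCODE M1 (mm9), and RPKM was computed over all unique tags. Tissues were compared with limma 3.58.1 (R 4.3.3, trended variance) on log2(RPKM + 1) for genes with at least 20 tags over 7 cDNA preparations, with Benjamini-Hochberg adjustment and a threshold of 0.05. Since a pseudocount of 1 was used, differences of low genes are understated. Introns were compared with exact permutation tests (Python 3.11.15, scipy 1.17.1). Intervals are exact at 95%, and 3 tags were taken as the limit of a count of 0. On data simulated for the tissue comparison over 15578 genes, 200 of 200 genes changed 4-fold were recovered and 11 of 15378 unchanged genes were called. The changed genes were drawn from those with at least 200 tags, and the same fixed spread was used for all genes. Recovery at the tag counts of Pax2, Six3, Six6, Rax and Pitx3, which lie under 200, was not tested. The members and lists were chosen with earlier results of these data known. Named genes are the members, the genes that overlap them, in each list up to 4 genes with the largest difference among those called or else the highest level, and the 2 genes nearest in profile. Alternatives were other pseudocounts, filters, scales, exon definitions, locations, fragmentation, replicate blocks, preparations of 1 depleted RNA merged (added after the data were seen) and each preparation or library left out. Some genes and sequences that this rule names are not reported here.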

Additional observations from a re-analysis of the deposited data

Results flagged for a closer look

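In 27 groups of 4 to 8 RiboMinus preparations or libraries, 4 values of members lay far from the rest of their group by Dixon's criterion. For continuous values chance meets it in about 1 in 20 groups. All 4 were a single tag where the other samples had none. A single tag among zeros always meets the criterion, so that rate does not apply to these values. Each tag is listed for its preparation and again for its library. They were Six3 in the CCE preparation CCE2s (0.0422 RPKM) and in its Nijmegen library (0.0819 RPKM), and Pitx3 in CCE2s (0.235 RPKM) and in its Vienna-IMP library (0.485 RPKM). The 3 FH preparations were too few for this criterion.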

How the results depend on the processing

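All 8 genes kept a positive difference under every alternative in which they were tested. The calls lost were Pax2 with Vienna-IMP libraries alone and Rax with no filter. With a mean RPKM over 3 in a tissue, 3 of 3 members tested were called higher, against 2202 of 10857 genes. With at least 100 tags it was 4 of 4, against 2473 of 12186 genes. With Nijmegen libraries alone it was 5 of 5, against 2409 of 14068 genes. Fewer genes were tested in these settings. Apart from Pax6 and Lhx2, the members tested there passed the filter only through FH, so these counts are descriptions. When a preparation or library was left out, the number called higher ran from 7 to 8. Without FH1s Rax was not tested and Pitx3 had 1.27 in place of 1.93. Over all genes 7823 were called, 5097 with Nijmegen libraries alone, 10242 with hydrolysed libraries alone, 10460 with fragmentation as a covariate, 10336 with the preparations of 1 depleted RNA merged (chosen after seeing the data), and from 6245 to 7868 with a preparation or library left out. The share of higher genes among them rested on the scale. It was 46.6% (3646 higher and 4177 lower, median -0.14), and on the scale of protein-coding exon tags 4555 were higher and 2558 lower (median 0.13), on a median-of-ratios scale 4207 and 3061 (median 0.03).

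With the preparation number as a replicate block 7071 genes and the same 8 members were called. With the library numbers of the titles as a block it was 8442 and 8. Of these genes 3420 and 3714 were higher in FH, out of 15585 and 15387 tested. Deviations of same-numbered libraries over 12186 genes correlated with r of 0.36, 0.25 and 0.50 where CCE and FH were fragmented alike. Where the methods differed r was -0.13, -0.62 and -0.35, so these values cannot tell a pairing of samples from fragmentation. For preparations r was -0.11 for both numbers, whose deviations mirror each other and give a single value. Whether the numbers pair the samples was thus not settled. Fragmentation gave 5504 called genes, and 1414 in CCE alone. Location gave 63, and 19 with a pseudocount of 0.1. The depth limits Crx, Rax, Six6, Pax2 and Pitx3, whose RiboMinus values rest on fewer than 50 tags each.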

Other observations

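The nearest protein-coding neighbours of the members that do not overlap them differed in direction. Six2 beyond Six3 and Dennd1a beside Lhx2 (log2 difference 0.73, adjusted p = 0.047, limma) were higher in FH. Hif1an (-1.14) and Fam178a (-1.38) on the sides of Pax2, Nek6 beside Lhx2 (-0.73) and Nolc1 beside Pitx3 (-1.02) were lower. Rcn1, Immp1l, 1700106N22Rik, Ppm1a, 6720456H20Rik, Exoc5 and Gbf1 were not called, and Grp, Cplx4, Obox6 and Crxos1 were not tested. Gbf1 lies 4.18 kb from Pitx3 and had 26.1 RPKM in the CCE and 22.3 in the FH RiboMinus pool.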
